A study of Mus musculus with 8 samples.

Results

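The interleukin 12 family was followed here in mouse leukemias through 8 genes, listed in capitals in the deposited gene table as IL12A, IL12B, IL23A, EBI3, IL27, IL12RB1, IL12RB2 and IL6ST. They are 8 of the 16419 genes in that table, and all 8 were found in it by name. The set was picked on measured values: Il12a was chosen by its mean difference between the groups, the largest in size of the table, and by its wide spread among leukemias. The difference and the spread of Il12a are therefore given as a description with no test. The other 7 genes were taken for their place in the family, and they were tested.

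Cytokines of the interleukin 12 family are secreted pairs of an alpha chain (p35, p19 or p28) and a beta chain (p40 or Ebi3), and they are shared out in combinations. Il12a encodes p35 and Il12b encodes p40, which together make IL-12; Il23a encodes p19, which joins p40 in IL-23; Il27 encodes p28, which joins Ebi3 in IL-27; and p35 with Ebi3 has been described as IL-35, a product of regulatory B and T cells. Il12rb1, Il12rb2 and Il6st (gp130) are receptor chains that pass the signal to Janus kinases and STAT proteins.

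Leukemia cells of 4 ROR1xTCL1 mice, which carry a ROR1 and a TCL1 transgene, were set against those of 4 TCL1 mice, which carry the TCL1 transgene alone. Both groups thus share TCL1, and the series title calls the TCL1 line Eµ-TCL1, named for the immunoglobulin heavy chain enhancer that drives expression in B cells. The promoter and species of the ROR1 transgene, the strain, the ages, the organ and any sorting of the cells are not given in the labels. Total RNA was hybridised to Affymetrix Mouse Exon 1.0 ST arrays, 1 per mouse. Headers of the gene table hold numbers and a genotype but no sample name, so its arrays are called a to d within a group. The probe set table names replicates 1 to 4. No letter was tied to a number.

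Probe set values are on the log2 scale and gene values, of unstated scale, were read as log2 from their range, where 1 unit is a doubling of signal, and arrays give no detection call here. Each group mean is given with its SD over 4 arrays (n = 4), and each difference is ROR1xTCL1 minus TCL1 with its standard error (SE). The first quartile of gene values was 3.52 to 3.71 depending on the array, and the median between 5.03 and 5.09. The B cell marker Cd79a was bright in both groups: this gene, which encodes a chain of the B cell receptor, averaged 11.68 ± 0.11 in ROR1xTCL1, against 11.80 ± 0.08 in TCL1 leukemias. The samples also held signal of other cell types. The mean of 10 neutrophil markers lay between 5.40 and 5.90 in ROR1xTCL1 and between 4.94 and 8.76 in TCL1, with 8.76 on TCL1 array a and 7.49 on TCL1 array c. All 10 neutrophil differences were below 0 and none was called by limma at an adjusted p under 0.05. The mean of 8 T cell markers was 6.07 to 7.0 in ROR1xTCL1 against 6.07 to 7.47 in TCL1, and that of 6 natural killer markers 5.17 to 5.65 in ROR1xTCL1 against 4.66 to 6.04 in TCL1. Monocyte and macrophage markers (8) averaged 5.78 to 6.80 in ROR1xTCL1 against 5.48 to 7.30 in TCL1, and dendritic cell markers (8) 5.40 to 5.63 in ROR1xTCL1 against 5.0 to 5.97 in TCL1. Plasma cell markers (6) averaged 7.17 to 9.0 in ROR1xTCL1 against 7.03 to 8.53 in TCL1, erythroid markers (5) 6.58 to 9.33 in ROR1xTCL1 against 6.90 to 7.95 in TCL1, and stromal and endothelial markers (7) 4.88 to 5.05 in ROR1xTCL1 against 4.88 to 5.09 in TCL1. In such bulk RNA, a change in the number of cells of a type and a change in RNA per cell cannot be told apart. Y-linked genes read 3 arrays as male (ROR1xTCL1 c and d, and TCL1 c) and 5 as female.

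Il12a, the p35 subunit, was picked partly for its spread, so that its standing out among the 8 genes was set in advance. Its upstream sequence is shown because it is the gene the set was picked on. RefSeq (GRCm38.p6) gives 2 starts for mouse Il12a on chromosome 3, plus strand, and the 250 bases before each are printed 5′ to 3′. Capitals mark the stretch covered by overlapping matches to a kB motif, the letter pattern of NF-kB sites, searched as GGGNNNNNCC on both strands.
Il12a, chr3:68690394-68690643: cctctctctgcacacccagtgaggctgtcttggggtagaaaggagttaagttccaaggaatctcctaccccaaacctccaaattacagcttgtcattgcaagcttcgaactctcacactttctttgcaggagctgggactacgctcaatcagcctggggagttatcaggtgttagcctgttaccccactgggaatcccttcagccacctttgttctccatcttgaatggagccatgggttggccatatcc
Il12a, chr3:68691174-68691423: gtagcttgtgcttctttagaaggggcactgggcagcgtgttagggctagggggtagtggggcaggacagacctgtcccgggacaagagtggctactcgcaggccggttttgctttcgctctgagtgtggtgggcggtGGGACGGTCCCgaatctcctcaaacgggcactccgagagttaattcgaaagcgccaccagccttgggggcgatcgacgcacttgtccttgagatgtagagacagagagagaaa
The upstream window held no kB match, and the matches in the downstream one began 113 and 112 bases before the start. Of all 32851 RefSeq promoter windows, each searched over the 250 bases before its start, 45.8% held the pattern. A match is thus common, and it describes letters and not a site in use. Of the other patterns searched on both strands, TTCNNNGAA (GAS, the letters of STAT sites, in 7.02% of windows) matched only the Il12rb2 window, 123 bases before the start. GAAANNGAAA (ISRE, 2.98%) and TATAAA (12.4%) matched none of the 6 windows at hand, which cover 5 of the 8 genes.

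Il12a read 8.79, 4.71, 5.41 and 5.65 on ROR1xTCL1 arrays a to d, against 6.35, 7.66, 8.89 and 9.29 on TCL1 arrays a to d. ROR1xTCL1 array a lay between TCL1 arrays b and c, the other 3 ROR1xTCL1 arrays lay below every TCL1 array, and so the groups overlapped. The mean was 6.14 ± 1.81 in ROR1xTCL1, against 8.05 ± 1.33 in TCL1, and the difference was -1.91 ± 0.93 (SE). From the lowest to the highest leukemia the signal covered 4.59 log2 units, or 24-fold. The SD over all 8 arrays, 1.79, was larger than that of 99.9% of genes, whose median SD was 0.21.

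**Figure D1:**
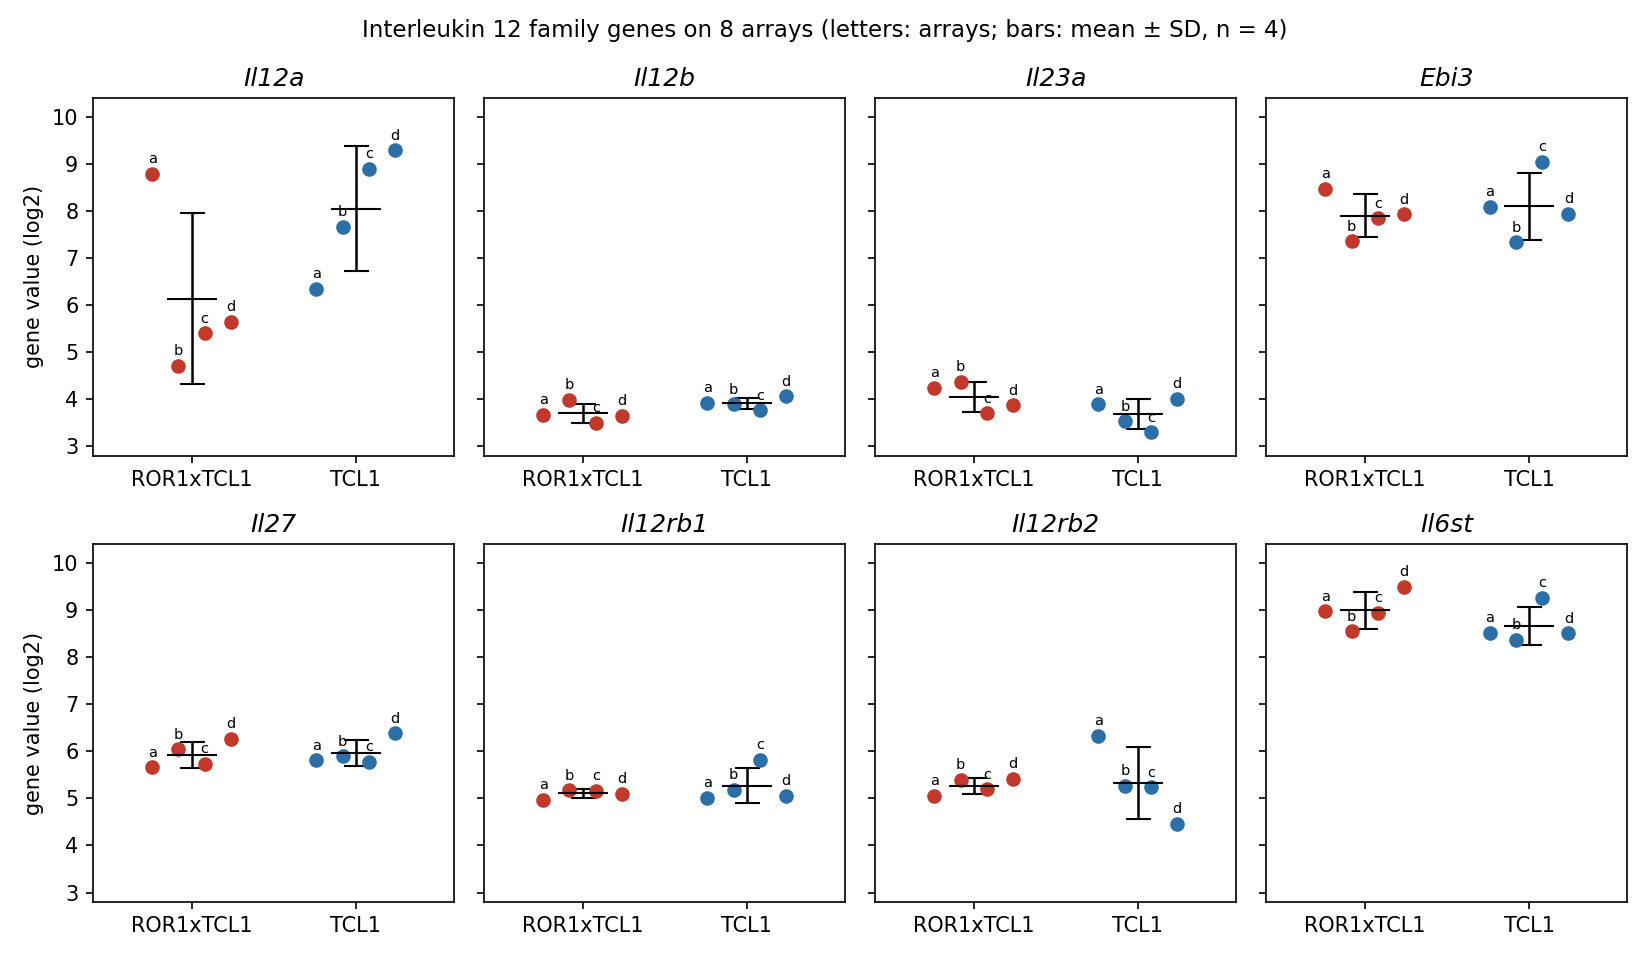
Gene table values (log2, vertical axis) of the 8 genes on the 4 ROR1xTCL1 arrays (red, left) and the 4 TCL1 arrays (blue, right), with letters naming the arrays and bars giving the mean and SD. Il12a runs from 4.71 to 9.29, while Il12b stays between 3.50 and 4.06.

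Marker means of other cells are set beside Il12a array by array. The T cell mean was lowest on the 3 arrays highest for Il12a, at 6.07 on ROR1xTCL1 array a, 6.07 on TCL1 array d and 6.50 on TCL1 array c, and highest on TCL1 array a (7.47) and ROR1xTCL1 array d (7.0). This is 1 of 9 marker lists, and the others did not all run this way. The natural killer mean was lowest on TCL1 array d (4.66), but it was 5.57 on TCL1 array c against 5.17 on ROR1xTCL1 array b, the lowest for Il12a. TCL1 array a had the highest neutrophil mean (8.76) and the lowest Il12a of its group (6.35), and TCL1 array d had the highest Il12a (9.29) with a neutrophil mean of 5.03. The other TCL1 arrays went the other way. Array c had a neutrophil mean of 7.49 with Il12a at 8.89, and array b had the lowest neutrophil mean (4.94) with Il12a at 7.66. ROR1xTCL1 array a, the highest of its group for Il12a, also had the highest erythroid mean of all arrays (9.33), and TCL1 array d, with the highest Il12a, had an erythroid mean of 6.90. The part of these cells in the Il12a values was not tested. Among the 5 female arrays the Il12a difference was -1.02 ± 1.36, and among the 3 male arrays, with a single TCL1 array, it was -3.37 ± 0.21 (SE), an SE that holds nothing of the TCL1 spread.

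The probe sets of Il12a gave the same picture in single mice. Their mean was 7.50, 3.78, 4.55 and 4.90 in ROR1xTCL1 replicates 1 to 4, against 5.31, 6.53, 8.03 and 8.26 in TCL1 replicates 1 to 4. Again 1 ROR1xTCL1 leukemia was bright and 3 were dim. Probe set 4773025 read 8.06, 2.27, 3.71 and 4.51 in ROR1xTCL1 replicates 1 to 4, against 5.35, 6.78, 8.68 and 8.67 in TCL1 replicates 1 to 4. Of the 14 probe sets, 13 were lower on average in ROR1xTCL1, with differences from -2.73 to 0.08 and a median of -2.10. None of the 14 separated the groups, where 1.97% of all 1236087 probe sets did. Since Il12a was chosen by this difference, nothing is read from these counts.

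Probe sets of Il12a moved together from mouse to mouse. The correlation of each with the mean of the others had a median of 0.97, and 11 of 14 exceeded 0.9; since Il12a was picked for its spread, nothing is read from this. The exceptions were 5250329 at -0.13, 4721092 at 0.44 and 4366063 at 0.88. Probe set 4721092 was dim in ROR1xTCL1 (2.54, 3.50, 2.79 and 3.41) and in TCL1 replicates 1 and 2 (3.23 and 2.37), and brighter in TCL1 replicates 3 and 4 (5.12 and 5.03). These are correlations over the same 8 libraries and are given without a test.

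**Figure D2:**
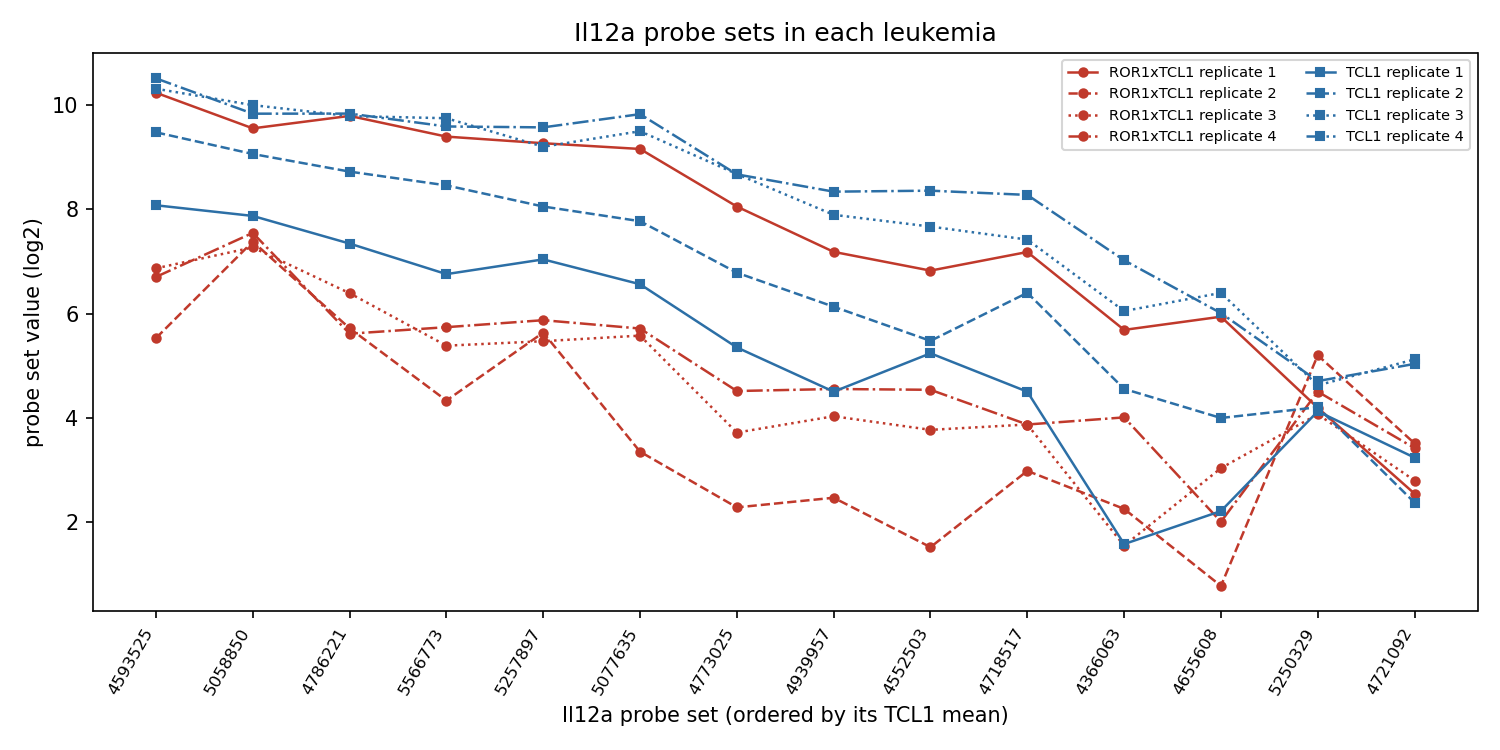
Values (log2, vertical axis) of the 14 Il12a probe sets (horizontal axis, ordered by their TCL1 mean) in each leukemia, with ROR1xTCL1 in red circles and TCL1 in blue squares. Lines of the same leukemia stay high or low across most probe sets, and the 3 dim ROR1xTCL1 leukemias lie lowest at probe sets such as 4773025.

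Ebi3, the beta chain of IL-27 and of the described IL-35, read 8.47, 7.36, 7.84 and 7.93 on ROR1xTCL1 arrays a to d, against 8.08, 7.33, 9.04 and 7.94 on TCL1 arrays a to d. The highest and the lowest array were both TCL1, and the groups overlapped fully. Its mean was 7.90 ± 0.46 in ROR1xTCL1, against 8.10 ± 0.71 in TCL1, and the difference was -0.20 ± 0.35 (95% interval -1.0 to 0.60, exact permutation p = 0.629, two-sided). All 7 Ebi3 probe sets were lower on average in ROR1xTCL1, by -0.46 to -0.03, and each correlated with the mean of the others at a median of 0.92. They were read on the same 8 arrays and do not count as separate differences. Without TCL1 replicate 3 the difference of their mean was 0.066 ± 0.32 (SE). The SD of Ebi3 over the 8 arrays exceeded that of 93.6% of genes. The 250 bases before its RefSeq start (chromosome 17, plus strand, GRCm38.p6) are shown because, like the downstream Il12a window, they held overlapping kB matches, here 44 and 43 bases before the start and again in capitals.
Ebi3, chr17:55952373-55952622: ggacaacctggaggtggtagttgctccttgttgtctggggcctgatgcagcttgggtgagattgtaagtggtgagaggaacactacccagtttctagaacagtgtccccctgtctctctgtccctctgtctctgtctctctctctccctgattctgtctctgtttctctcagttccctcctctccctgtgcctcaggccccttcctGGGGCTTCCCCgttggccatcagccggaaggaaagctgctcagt

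Il12b, the p40 chain shared by IL-12 and IL-23, read 3.67, 3.99, 3.50 and 3.65 on ROR1xTCL1 arrays a to d, against 3.92, 3.89, 3.76 and 4.06 on TCL1 arrays a to d. These values lay close to the first quartile of all genes, and the groups overlapped. The mean was 3.70 ± 0.20 in ROR1xTCL1, against 3.91 ± 0.12 in TCL1, and the difference was -0.21 ± 0.13 (95% interval -0.50 to 0.08, exact permutation p = 0.143). The 8 Il12b probe sets had a median correlation of 0.30 with the mean of the others, and none exceeded 0.9, where the median over the 17879 genes with at least 5 probe sets was 0.33.

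Il23a, the p19 chain of IL-23, was the tested subunit with the largest positive difference. It read 4.24, 4.37, 3.70 and 3.87 on ROR1xTCL1 arrays a to d, against 3.90, 3.53, 3.30 and 4.01 on TCL1 arrays a to d. Its mean was 4.04 ± 0.31 in ROR1xTCL1, against 3.68 ± 0.33 in TCL1, and the difference was 0.36 ± 0.20 (95% interval -0.10 to 0.82, exact permutation p = 0.171). With sex as a term the difference was 0.49 ± 0.13 (SE), with a limma adjusted p of 1.0. It was 0.49 ± 0.19 (SE) among female arrays and 0.48 among male arrays, which hold a single TCL1 array. Both splits by sex were chosen after the data were seen. The groups overlapped, the values were again near the first quartile, and its 8 probe sets had a median correlation of 0.27.

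Il27, the p28 chain, read 5.66, 6.04, 5.74 and 6.27 on ROR1xTCL1 arrays a to d, against 5.81, 5.89, 5.78 and 6.38 on TCL1 arrays a to d. The means were nearly equal, at 5.93 ± 0.28 in ROR1xTCL1, against 5.97 ± 0.28 in TCL1, with a difference of -0.04 ± 0.18 (95% interval -0.45 to 0.37, exact permutation p = 0.80). Its 6 probe sets hardly moved together, with a median correlation of 0.07.

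Among the receptors, Il12rb1, the chain that binds p40, read 4.97, 5.18, 5.16 and 5.10 on ROR1xTCL1 arrays a to d, against 5.02, 5.18, 5.83 and 5.06 on TCL1 arrays a to d. TCL1 array c stood above all other arrays, which lay within 4.97 to 5.18. Its mean was 5.10 ± 0.09 in ROR1xTCL1, against 5.27 ± 0.38 in TCL1, and the difference was -0.17 ± 0.18 (95% interval -0.57 to 0.24, exact permutation p = 0.629). Of its 20 probe sets 15 were lower on average in ROR1xTCL1, and 1 separated the groups, as did 1.97% of all probe sets.

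Il12rb2, the signalling chain of the IL-12 receptor, found on T and natural killer cells and also on some B cells, read 5.05, 5.40, 5.19 and 5.42 on ROR1xTCL1 arrays a to d, against 6.33, 5.27, 5.23 and 4.46 on TCL1 arrays a to d. The TCL1 arrays held both the highest and the lowest value, and the ROR1xTCL1 arrays lay between them. Its mean was 5.27 ± 0.18 in ROR1xTCL1, against 5.32 ± 0.77 in TCL1, and the difference was -0.06 ± 0.33 (95% interval -0.81 to 0.70, exact permutation p = 0.83). TCL1 array a, highest for Il12rb2, also had the highest means of T cell (7.47), natural killer (6.04), dendritic (5.97), monocyte and macrophage (7.30) and neutrophil (8.76) markers. TCL1 array d, lowest for Il12rb2, had the lowest natural killer (4.66) and monocyte and macrophage (5.48) means and a T cell mean of 6.07. The part of these cells in the Il12rb2 signal was not tested. Its 21 probe sets split into 11 lower and 10 higher in ROR1xTCL1, with a median correlation of 0.80.

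Il6st, the gp130 chain used by IL-27 and by the IL-6 family, was bright in all leukemias. It read 8.98, 8.55, 8.95 and 9.50 on ROR1xTCL1 arrays a to d, against 8.52, 8.37, 9.27 and 8.51 on TCL1 arrays a to d. Its mean was 8.99 ± 0.39 in ROR1xTCL1, against 8.67 ± 0.40 in TCL1, and the difference was 0.33 ± 0.24 (95% interval -0.23 to 0.88, exact permutation p = 0.286). Of its 19 probe sets 18 were higher on average in ROR1xTCL1, by up to 0.71, and 1 separated the groups, where 1.97% of all probe sets did. Of all 1236087 probe sets, 615480 were higher. The 19 were read on the same 8 arrays and do not count as separate differences. Beside sex, which was not tested and is partly confounded with genotype (2 of the 3 male arrays are ROR1xTCL1), the values overlapped: the 3 male arrays read 8.95 to 9.50 with a median of 9.27, and the 5 female arrays read 8.37 to 8.98 with a median of 8.52. The group difference was 0.18 ± 0.17 with sex as a term, 0.30 ± 0.18 among female arrays and -0.04 ± 0.30 (SE) among male arrays, where TCL1 array c is the only TCL1 array, so that this SE holds nothing of the TCL1 spread.

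Set against the whole table, 0 of the 7 tested genes passed an adjusted p under 0.05 in limma with Benjamini-Hochberg adjustment, as did 0 of 16419 genes (0%). The adjusted p was 1.0 for each of the 7 tested genes, and the smallest unadjusted limma p among them was 0.111, for Il23a. At an unadjusted p under 0.05, 268 genes of the table passed and none of the 7. None of the 7 separated the groups, against 1.10% of all genes. Of the 7 differences 5 were below 0 and 2 above, with a median of -0.06, where the median of all genes was -0.01. The median absolute difference was 0.20 over the 7 genes and 0.09 over all genes. With 70 orderings of the arrays, 0.0286 is the smallest p that the exact permutation test allows.

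**Figure D3:**
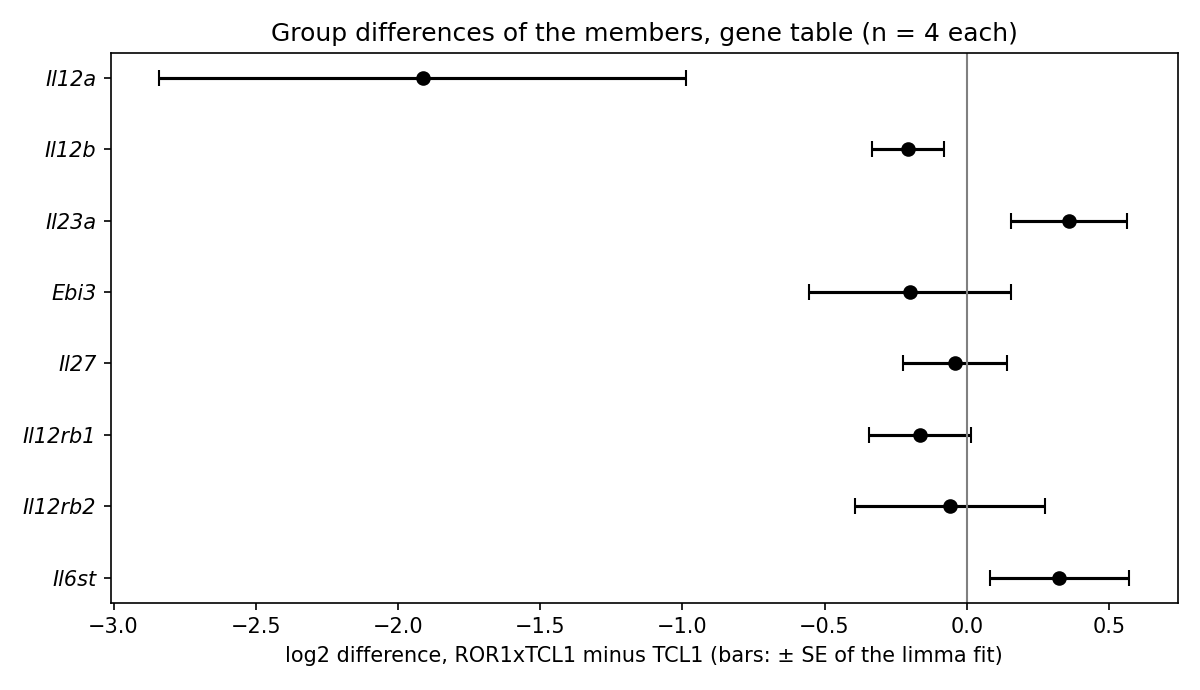
Differences (log2, horizontal axis, ROR1xTCL1 minus TCL1) of the 8 genes with the SE of the limma fit as bars. Il12a lies at -1.91, and the other 7 lie between -0.21 and 0.36.

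The spread among leukemias, as the SD over the 8 arrays, was above that of the median gene for 6 of the 7 genes other than Il12a. Ebi3, Il12rb2 and Il6st exceeded 93.6%, 91.9% and 85.5% of genes, Il23a 80.2%, Il12rb1 65.8% and Il27 63.6%, and Il12b exceeded 41.6%. The highest array stood above the lowest by 3.65-fold for Il12rb2, 3.27-fold for Ebi3, 2.18-fold for Il6st, 2.10-fold for Il23a and 1.47-fold for Il12b. The median correlation of Ebi3 probe sets was above that of 98.1% of genes, that of Il6st 94.5%, Il12rb2 90.8% and Il12rb1 68.2%, and those of Il12b, Il23a and Il27 above 47.2%, 43.8% and 22.7%.

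Whether partner chains varied together was asked over the 28 pairs of genes on the 8 arrays, with exact permutation p over all 40320 pairings adjusted over the 28. None passed an adjusted p under 0.05 by Pearson's r or Spearman's rho, and 1 passed unadjusted. The chains of the described IL-35, Il12a and Ebi3, had r = 0.57 (exact p = 0.146, adjusted 0.896) and rho = 0.60 (exact p = 0.132, adjusted 0.846), and r was again 0.57 without the 2 arrays farthest from the median of Il12a. ROR1xTCL1 array b was lowest for Il12a and next to lowest for Ebi3, and TCL1 array c was high for both, while TCL1 array b had Il12a at 7.66 with the lowest Ebi3. With 5 female and 3 male arrays, no r is given within a sex.

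The other partner chains had r nearer 0 over all 8 arrays, and the IL-23 chains did not once group means were removed. Il12a and Il12b, the chains of IL-12, had r = 0.22 (exact p = 0.587) and rho = 0.29 (exact p = 0.501), and r = 0.34 without 2 arrays. Il12b and Il23a, the chains of IL-23, had r = 0.27 (exact p = 0.522) and rho = 0.43, and r = 0.13 without 2 arrays. On average Il12b was lower and Il23a higher in ROR1xTCL1, and on deviations from the group means they had r = 0.85. The permutation p, adjusted over the 28 pairs, was 0.066. Taken in the same way, Il12a and Ebi3 had r = 0.57 (adjusted 0.483). These p values are approximate and not exact, since arrays were reordered across groups although the deviations sum to 0 within each group. Ebi3 and Il27, the chains of IL-27, had r = -0.35 (exact p = 0.391) and rho = -0.38, and r = -0.40 without 2 arrays. The receptor pair Il12rb1 and Il12rb2 had r = -0.07 (exact p = 0.766) and rho = 0.12, and r = -0.27 without 2 arrays. All of these had adjusted p values above 0.05.

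**Figure D4:**
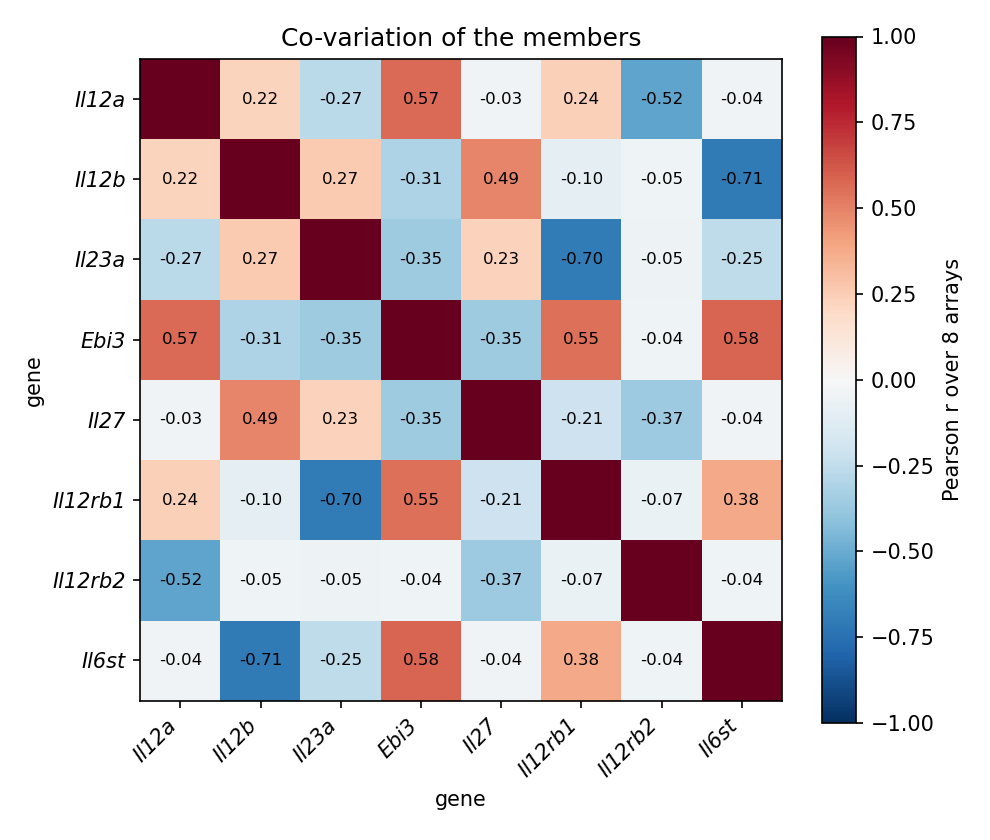
Pearson correlation (colour, and number in each cell) over the 8 arrays for each pair of the 8 genes on the axes. Values run from -0.71 (Il12b and Il6st) to 0.58 (Ebi3 and Il6st), with 9 pairs above 0 and 19 below.

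The strongest pairs joined a ligand chain and a receptor chain. Il12b and Il6st had r = -0.71 (exact p = 0.052, adjusted 0.733), and Il23a and Il12rb1 had r = -0.70 (exact p = 0.032, adjusted 0.733). Single arrays decided some of these values. Ebi3 and Il12rb1 had r = 0.55 over 8 arrays and r = -0.89 without TCL1 arrays b and c. Without TCL1 array c alone they had r = -0.91 (exact permutation, adjusted p = 0.00556, 7 arrays), and without ROR1xTCL1 array b Il23a and Il12rb1 had r = -0.84 (exact permutation, adjusted p = 0.0278, 7 arrays). Both cases were picked after each array had been left out in turn. The adjustment covers the pairs of a single setting and not that choice, so nothing is read from these p values.

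**Figure D5:**
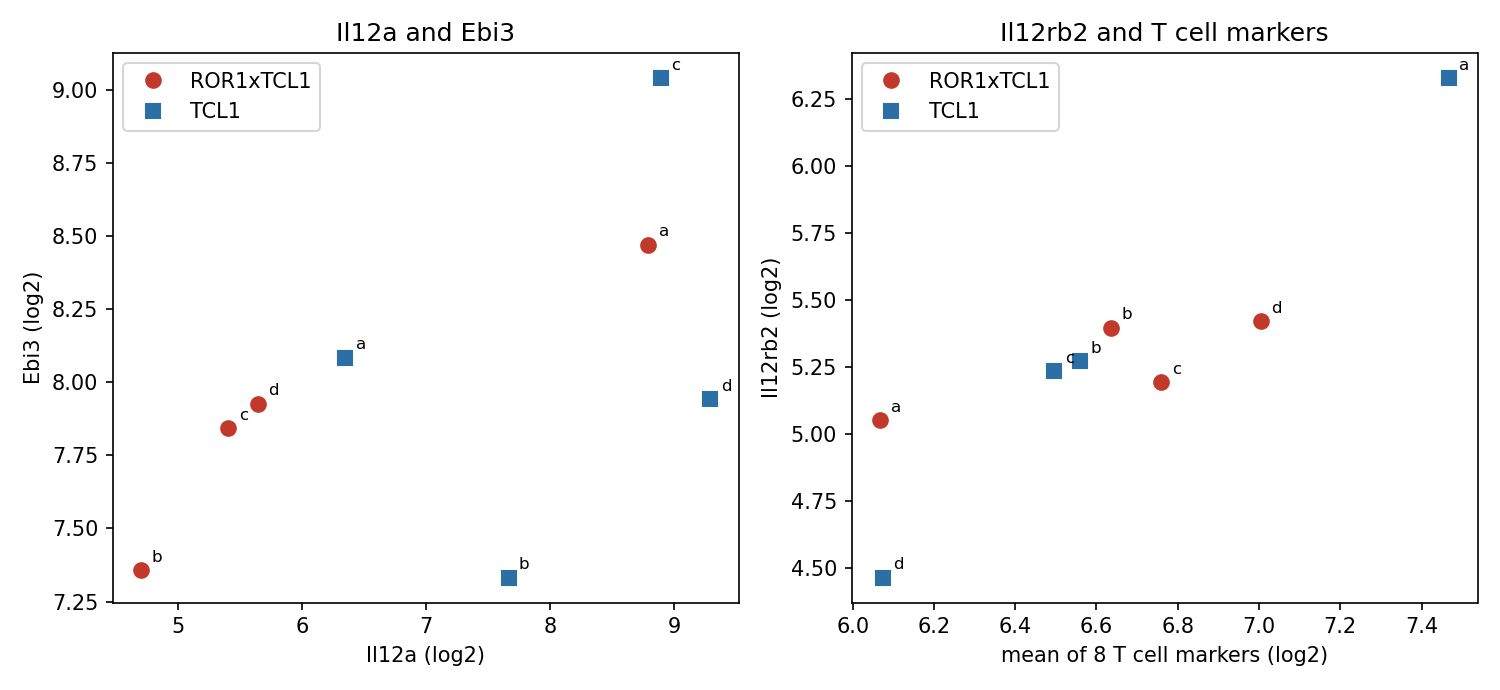
Left, Ebi3 against Il12a (both log2); right, Il12rb2 against the mean of 8 T cell markers (log2), with ROR1xTCL1 arrays as red circles, TCL1 arrays as blue squares and letters naming arrays. TCL1 array c lies at the upper right of the left panel (8.89 and 9.04), and TCL1 array a lies alone at the upper right of the right one (7.47 and 6.33), a panel chosen after its values were seen.

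Genes whose profile over the 8 arrays was most like that of Il12a were sought among 2004 genes with a range of at least 1 log2 unit and a mean above the median gene. Lhpp, which encodes a histidine phosphatase, had the highest r, 0.96, and 0.89 in the probe set table. It read 7.39, 6.37, 6.69 and 6.4 on ROR1xTCL1 arrays a to d, against 6.76, 6.94, 7.21 and 7.28 on TCL1 arrays a to d, so that the same 3 ROR1xTCL1 arrays were lowest. Next came the retinol dehydrogenase gene Rdh12 (0.88), the secreted nuclease gene Dnase1l3 (0.87), the chemokine receptor gene Ackr3 (0.85), Bcl7a (0.83) and Ehd1 (0.82). The lowest r were those of Get1 (-0.87), Nsg2 (-0.85) and Klrc1 (-0.84), which encodes a natural killer receptor. The genes most like Ebi3 were BC048355 and the histone deacetylase gene Hdac7 (0.95 each) and Mybl1 (0.94). These values rank many genes over the same 8 libraries and carry no p.

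The rest of the pathway was read from 5 lists with 54 entries, of which 49 were measured. None of the 49 was called, 20 differences were above 0 and 29 below. Both receptor chains outside the 8 genes lay below 0: Il23r, the second chain of the IL-23 receptor, averaged 2.63 in ROR1xTCL1 and 2.78 in TCL1, under the first quartile of genes, and Il27ra averaged 6.59 ± 0.22 in ROR1xTCL1, against 6.66 ± 0.09 in TCL1.

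Of 8 Janus kinases and STATs 5 were above 0 and 3 below, with a median difference of 0.07. Stat4, the STAT of the IL-12 receptor, differed by 0.13 ± 0.46, and Stat3, that of gp130, by 0.09 ± 0.09 (SE). Stat5b differed by 0.12 ± 0.11 and Stat5a by -0.11 ± 0.11. Of 14 inducers of the subunit genes 6 were above 0 and 8 below, with a median of -0.01. Irf1, an interferon-induced factor known to act on Il12a, averaged 7.43 ± 0.45 in ROR1xTCL1, against 7.79 ± 0.13 in TCL1, and the difference was -0.36 ± 0.21 (SE). Cebpb differed by 0.22 ± 0.23, the NF-kB subunit gene Rel by -0.12 ± 0.28 and the lipopolysaccharide receptor gene Tlr4 by 0.10 ± 0.33.

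Of 17 response genes 5 were above 0 and 12 below, with a median of -0.16. Il10, the product of regulatory B cells, averaged 8.76 ± 0.71 in ROR1xTCL1, against 9.27 ± 0.43 in TCL1, and the difference was -0.52 ± 0.35 (SE). Socs1, an inhibitor of Janus kinases, averaged 6.15 ± 0.17 in ROR1xTCL1, against 6.53 ± 0.15 in TCL1, and the difference was -0.38 ± 0.13, with a limma adjusted p of 1.0. The interferon-induced chemokine gene Cxcl10 differed by -0.35 ± 0.69 and Ifng by -0.24 ± 0.25. Of 13 other gp130 cytokines and receptors 8 were measured, 4 above and 4 below 0, with a median of 0.04, and Clcf1 differed by -0.12 ± 0.19.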

How the data were processed

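Leukemia RNA of 4 ROR1xTCL1 and 4 TCL1 mice was measured on exon arrays, 1 per mouse. The authors deposited log2 values for 1236087 probe sets, made by RMA in oligo per the labels, that is, with background correction, quantile normalization and summarising over probes. Per the submitters' processing notes, R 2.15.1 was used. The authors also deposited a table of gene values whose scale is not stated. It was read as log2 from its range of 0.89 to 12.64. The series text names the Exon Array Computational Tool, and how gene values were summarised from probes is not given here by any label or header. Normalization of this kind leaves values relative to the other genes of an array.

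Of 16495 gene rows, 4 with a bare number as name were dropped, and rows sharing a name (72 names) were averaged, which left 16419 genes. Of these, 14742 matched a current symbol in the RefSeq gene table and 1438 a synonym. The other 239 stayed as deposited, since they matched neither or matched a synonym shared with another gene or name. The platform annotation gave 1 symbol for 321091 probe sets, several for 7796 and none for 907200. Columns of the gene table carry numbers and a genotype but no sample name, so arrays a to d were not tied to replicates 1 to 4 by label. The sexes ran in the same order in both: TCL1 array c and replicate 3 read male, as did ROR1xTCL1 arrays c and d and replicates 3 and 4. No match by values was made.

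Whole tables were fitted with lmFit and eBayes of limma 3.58.1 under R 4.3.3, two-sided, as ROR1xTCL1 minus TCL1. Adjustment was by Benjamini-Hochberg, with a threshold of 0.05 and no filter. The procedure was tested on simulated data. Exact permutation tests served for single genes and correlations, and the same reordering gave an approximate p for deviations from group means. Precision is limited by having 4 arrays a group. The members and lists were chosen with earlier results of these data known. The genes named are the 8 members, up to 4 genes of each pathway list by size of difference among those brighter than the median gene, both other receptor chains, and those closest to Il12a and Ebi3 by r. The 5 pathway and 9 cell marker lists were described by counts, medians and mean levels, with no test of a list. An item of the B cell list is not reported here, nor is the mean of that list. Promoter windows were found for 5 of the 8 genes (6 windows). Alternatives were moderation, normalization, a filter on dim genes, the source of gene values, sex, single arrays left out and a replicate block.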

Additional observations from a re-analysis of the deposited data

Results flagged for a closer look

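Il6st in TCL1 leukemias had an array far from the others. TCL1 arrays a to d read 8.52, 8.37, 9.27 and 8.51, and the gap of array c to its nearest neighbour took up 0.837 of the range, above Dixon's 95% critical value for 4 samples. TCL1 array c was the male array of its group. Of 32 such checks (8 genes, both groups, both tables) 1 was flagged, and chance flags about 1 in 20.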

How the results depend on the processing

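Of 368 values recomputed under alternatives, 342 were counted as the same, 24 changed sign and 2 moved. For the tested differences, the same meant an unchanged sign and side of the threshold. For Il12a it meant a shift smaller than its SD within groups, so that -3.37 within male arrays still counted. Counts of genes could change somewhat: 4 genes below 0, against 6 in the main fit, counted as the same. Il12a was below 0 under all alternatives. It was at -2.80 to -1.44 (gene table) and -2.63 to -1.38 (probe sets) with an array left out in turn. After quantile normalization it was -1.95, and with the median of probe sets -2.27. Since Il12a was picked for its difference on these same arrays, nothing is read from its kept sign. No alternative called a gene. The changes of sign, whose cause was not tested, fell on uncalled differences and on r of uncalled pairs. Within female arrays, a choice made after seeing the data like that of male arrays, Ebi3 was 0.13 (0.015 from probe sets). Within male arrays Il27 was 0.22, Il12rb2 0.074 and Il6st -0.043. With the median of probe sets Il27 was 0.17 and Il12rb2 0.19, and with bright probe sets Il27 was 0.085. Leaving out an array in turn gave ranges of -0.46 to 0.11 for Ebi3, -0.15 to 0.10 for Il27, -0.25 to 0.02 for Il12rb1 and -0.35 to 0.28 for Il12rb2, and from probe sets -0.49 to 0.066 for Ebi3, -0.26 to 0.016 for Il12rb1 and -0.35 to 0.28 for Il12rb2. The r of Il12a with Il12b was -0.16 after removal of group means and -0.064 to 0.55 with an array left out; that of Il12rb1 with Il12rb2 was -0.26 to 0.25; that of Il12rb2 with Il6st was -0.35 to 0.37, and 0.090 from probe sets. The count of called pairs was 0 to 1. With a replicate block Il12a was -1.85 ± 0.97 (SE) with 0 genes called. The numbers were not taken to pair the mice, since deviations of same-numbered replicates correlated at 0.23, -0.0047, 0.22 and 0.11. Without a detection call, low values such as those of Il12b and Il23a may be background.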

Other observations

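Genes running opposite to Ebi3 were looked up after the values were seen, among the same 2004 genes, and are given without a test. The lowest r over the 8 arrays was -0.98, for Cd72, an inhibitory coreceptor of B cells, and it was -0.95 in the probe set table. Cd72 read 7.18, 9.31, 8.82 and 8.0 on ROR1xTCL1 arrays a to d, against 8.24, 9.66, 5.81 and 8.53 on TCL1 arrays a to d. TCL1 array c, highest for Ebi3, was lowest for Cd72, and TCL1 array b, lowest for Ebi3, was highest for it. Clcn5 (-0.96) and Pdk3 (-0.95) came next. The Cd72 difference between groups was 0.27 ± 0.77 (SE).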
